A study of Mus musculus with 686 samples.

Results

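The live return part of this mouse spaceflight study gave 29 kidney libraries among its 686 small RNA libraries. Of these, 10 came from mice that flew to the International Space Station and came back alive, and the others from ground controls. All 29 were chosen by their sample labels, which name the tissue as kidney and the extraction as Live Animal Return (LAR). No measured value entered the choice. Each library was counted in 7 RNA classes, namely miRNA, piRNA, tRNA, rRNA, snRNA, snoRNA and lncRNA.

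All mice were female BALB/cAnNTac, without a transgene or drug named in the labels, and were fed NASA food bars. The 10 FL libraries came from mice that spent 39.5 days on the station and were collected 2 to 4 days after splashdown, so that flight, re-entry and recovery cannot be told apart. The 10 HGC (Habitat Ground Control) libraries came from mice kept on Earth in flight hardware at matched temperature, humidity, carbon dioxide and cage density. The 9 VGC (Vivarium Ground Control) libraries came from mice in standard cages. In FL and HGC 5 mice were 3 months and 5 were 8 months old, and in VGC these numbers were 5 and 4. Mold was found on the food bars before launch in both FL and HGC, the return was delayed in crowded transport housing that HGC copied, and rough seas after splashdown had no ground counterpart. Each library held a piece trimmed from the kidney of 1 mouse. In such bulk tissue, fewer cells of a type and less RNA per cell cannot be told apart.

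miRNAs are short RNAs that pair with messenger RNAs, mainly through bases 2 to 8 at their 5′ end (the seed), and reduce the translation or stability of those messages. In the kidney, miR-192 and miR-194 are made from shared precursors and are abundant in the tubular epithelium, and miR-204 is enriched in the same epithelium. piRNAs are best known from germ cells, where they silence transposons, and reads in somatic tissue that carry a piRNA name are often short pieces of other RNAs.

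The mature miRNAs on which the results turned are printed below 5′ to 3′ with the seed in capitals, from RefSeq. miR-192-5p, miR-194-5p and miR-204-5p served as kidney markers, and miR-215-5p, a scarce miRNA here, shares its seed with miR-192-5p. Both strands of the miR-802 hairpin are shown for the difference between FL and VGC, and miR-21a-5p because it passed the fold and effect size rule between FL and HGC, though edgeR and DESeq2 did not call it. The last 3 mark striated muscle and heart.
mmu-miR-192-5p: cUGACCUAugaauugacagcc
mmu-miR-215-5p: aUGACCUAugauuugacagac
mmu-miR-194-5p: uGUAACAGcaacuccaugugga
mmu-miR-204-5p: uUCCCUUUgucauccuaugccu
mmu-miR-802-3p: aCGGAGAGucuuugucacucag
mmu-miR-802-5p: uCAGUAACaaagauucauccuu
mmu-miR-21a-5p: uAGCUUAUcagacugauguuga
mmu-miR-133b-3p: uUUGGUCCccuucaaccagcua
mmu-miR-499-5p: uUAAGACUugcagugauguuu
mmu-miR-208a-3p: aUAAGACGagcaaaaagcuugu

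In RefSeq on GRCm38.p6, which is an older build than the one used for the counts, miR-802-3p lies on the plus strand at chr16:93369775-93369796 and miR-802-5p on the same hairpin at chr16:93369737-93369758. miR-21a-5p lies on the minus strand at chr11:86584120-86584141, and miR-192-5p on the plus strand at chr19:6264857-6264877. Of the 987 miRNAs tested, 809 had a RefSeq sequence.

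Some libraries did not have the miRNA profile of the tissue on their label, and this was looked at first. Each library was correlated with the median miRNA profile of the 13 tissues of the series over 730 miRNAs. In 24 of the 29 libraries the kidney profile was the closest, with Pearson's r from 0.69 to 0.97 (9 FL, 9 HGC and 6 VGC). The other 5 were closest to another organ. FL 3 resembled diaphragm (r = 0.84, against -0.34 for kidney), HGC 1 gonadal adipose tissue (r = 0.81), VGC 4 liver (r = 0.74), VGC 11 spleen (r = 0.94) and VGC 13 heart (r = 0.94). The pools in which the study located tissue mix-ups held 5 LAR kidney libraries, namely FL 3, HGC 1, VGC 1, VGC 4 and VGC 11. The overlap was incomplete, since VGC 1 had a kidney profile (r = 0.91) and VGC 13 lay outside those pools. Comparisons are therefore given on all 29 libraries and on the 24 libraries with a kidney profile, and the counts of calls also without those pools.

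The levels below are TMM-scaled CPM (counts scaled to the same class total in each library), with the lowest, median and highest library of each arm among the 24 libraries with a kidney profile, unless stated otherwise. Log2 fold changes are given with their standard errors. The libraries held 24.3 to 86.7 M counts over the 7 classes (median 45.0 M, with M for mega) and 1.13 to 11.2 M miRNA counts (median 4.95 M).

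The kidney marker miR-192-5p was low in 4 of the 5 libraries with the profile of another tissue. The markers come from the same miRNA counts as the tissue check, so they are not a separate test of it. miR-192-5p stood at 16656, 34319 and 53789 in FL, at 18057, 24913 and 34147 in HGC, and at 21361, 26795 and 36497 in VGC. It was at 503 in HGC 1, 688 in VGC 11, 529 in VGC 13 and 3427 in FL 3, so that those 4 libraries lay far under every kidney library. VGC 4 was an exception at 49388, and it was told from kidney by miR-122-5p, the dominant miRNA of hepatocytes, which reached 129830 there against 17.7 to 1150 in the libraries with a kidney profile.

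**Figure D1:**
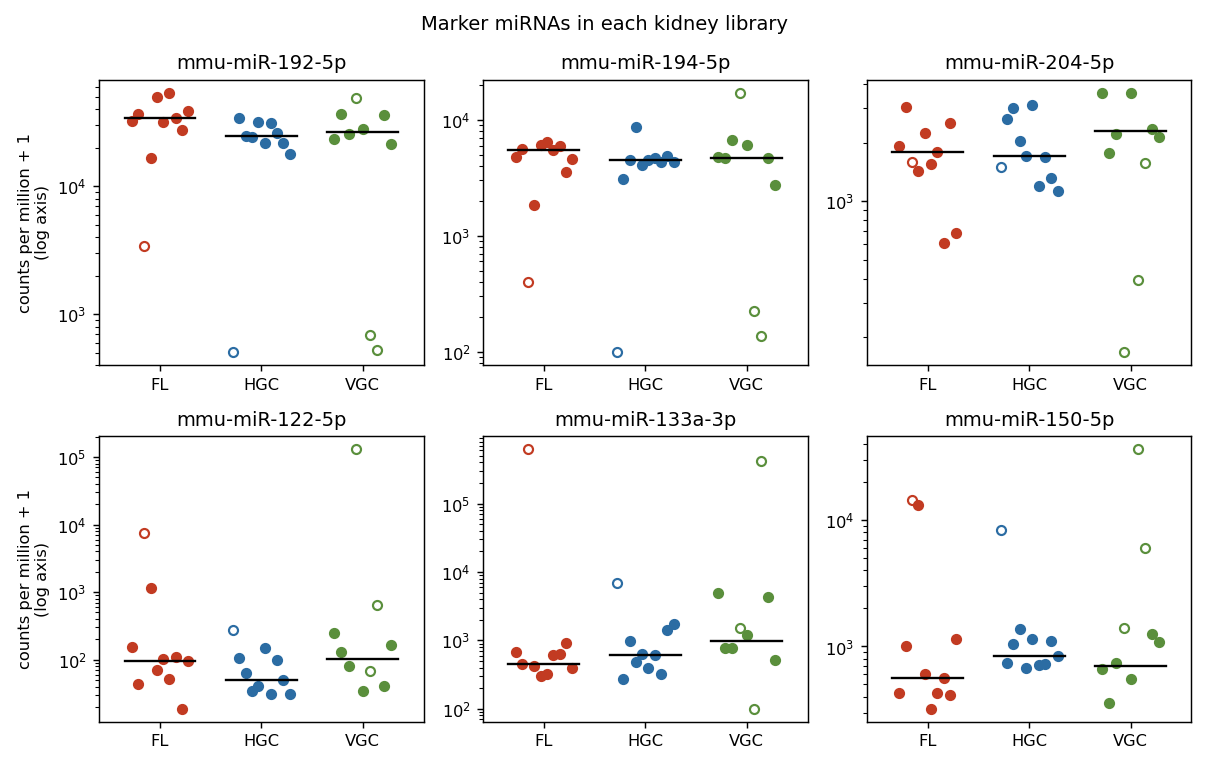
Levels of 3 kidney markers (upper row) and of the liver, muscle and leukocyte markers miR-122-5p, miR-133a-3p and miR-150-5p (lower row) in the 29 libraries by arm, as TMM-scaled CPM + 1 on a log axis. Each point is 1 library, open points are the 5 libraries with the profile of another tissue, and bars are medians of the filled points. The open points leave the kidney range in at least 1 panel each, and the filled FL point at 13190 for miR-150-5p is FL 4.

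FL 4 kept a kidney profile but the lowest correlation (r = 0.69). Its summed level over 7 leukocyte miRNAs was 27195, against 1710 to 4336 in the other 23 libraries with a kidney profile, and all of miR-150-5p, miR-142a-3p and miR-223-3p were high in it, at 13190, 5441 and 2273. HGC 16 (r = 0.82) gave 67.9% of its counts to tRNA. Some counts are also given without these 2 further libraries.

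miR-192-5p tended higher in FL. The log2 difference between FL and HGC was 0.42 ± 0.17 (SE, 9 and 9 libraries), and 5 of the 9 FL libraries lay above the highest HGC library, but it did not pass the test (edgeR adjusted p = 0.329). Against VGC it was 0.34 ± 0.19 (edgeR adjusted p = 0.809). miR-194-5p (FL 1829, 5471 and 6450, HGC 3074, 4501 and 8648, VGC 2769, 4727 and 6771) and miR-204-5p (FL 611, 1789 and 3045, HGC 1132, 1696 and 3104, VGC 1770, 2280 and 3596) overlapped between all arms. Their log2 differences between FL and HGC were -0.01 ± 0.20 and -0.23 ± 0.26. The 3 markers summed to 19918 to 61049 in FL, 23484 to 39869 in HGC and 26264 to 43015 in VGC.

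The kidney miRNA pool was led by a few species. The 10 most abundant miRNAs took 42.6% to 59.6% of the miRNA counts (median 50.7%), with miR-26a-5p at 9.11% on average, let-7c-5p at 8.12%, the erythroid miR-451a at 4.09% and miR-192-5p at 3.08%. The let-7 family, which acts in differentiation, held 5 of the 10 places.

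Comparing FL with HGC asks what flight and return added to the housing of the flight hardware. For miRNAs edgeR with TMM called nothing, and when counts were scaled to the total of the 7 classes it called 8 over all libraries, all higher in FL, and 0 with a kidney profile. At an edgeR adjusted p below 0.05, 0 of 987 miRNAs (0%) were called over all 29 libraries, with 83 at an unadjusted p below 0.05, and DESeq2 called 0. Without the mixed pools 0 of 938 were called (80 at an unadjusted p below 0.05), and among the libraries with a kidney profile 0 of 925 were called (102 at an unadjusted p below 0.05, DESeq2 0), with 53 of 908 at an unadjusted p below 0.05 without FL 4 and HGC 16.

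In 4 of the 5 miRNAs nearest to a call over all libraries, 1 to 3 libraries stood far above the rest. miR-3473e was at 1628 in HGC 16, 1203 in the adipose-like HGC 1 and 1035 in the liver-like VGC 4, and between 12.8 and 65.9 in the other libraries with a kidney profile, with a log2 difference of -3.71 ± 0.99 (edgeR adjusted p = 0.189). miR-5128 (-3.10 ± 0.80) was highest in HGC 1 at 64.3 and HGC 16 at 17.3. miR-1a-1-5p (6.26 ± 1.74), a strand of the muscle miR-1 hairpin, was led by the diaphragm-like FL 3, and its log2 difference was 1.18 ± 0.94 without it and the other 4. miR-675-3p, from the imprinted H19 transcript, differed by 5.45 ± 1.50 over all libraries, with 20.6 in FL 3, and was at 0 to 0.576 in the libraries with a kidney profile. miR-3569-5p was the steadiest of the 5. It stood at 0.154, 0.460 and 0.850 in FL and at 0, 0 and 0.226 in HGC, with 7 of 9 FL libraries above all HGC libraries and a log2 difference of 2.19 ± 0.60 over all and 2.21 ± 0.58 among the libraries with a kidney profile (edgeR adjusted p = 0.189 and 0.149), at less than 1 CPM.

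miR-21a-5p, which is induced in injured and fibrotic kidney, was 1 of 987 miRNAs (0.101%) past the study's fold and effect size rule when counts were scaled to the total of the 7 classes, which stands in here for the mapped reads of the study (a log2 ratio of geometric medians beyond 1 and a Cohen's d beyond 0.5). Its levels were 2885, 6275 and 8849 in FL, 2237, 3674 and 6448 in HGC and 2285, 4536 and 6915 in VGC. In FL 8 of the 9 libraries lay above the HGC median, 4 lay above the highest HGC library, and FL 2 was the lowest FL library. The log2 ratio was 1.23 with d = 0.73 over all libraries and 1.13 with d = 1.35 among the libraries with a kidney profile. Scaled to the miRNA total, 2 miRNAs were past the rule, 1 higher and 1 lower. No test called miR-21a-5p. The edgeR log2 difference was 0.62 ± 0.43 over all libraries (edgeR adjusted p = 0.716) and 0.60 ± 0.22 with a kidney profile (edgeR adjusted p = 0.283), and the Wilcoxon rank-sum test called 0 miRNAs in both sets, with 51 at an unadjusted p below 0.05 over all libraries and 62 with a kidney profile. Against VGC the edgeR log2 difference was -0.26 ± 0.44 over all libraries and 0.49 ± 0.25 with a kidney profile.

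Comparing FL with VGC adds the effect of the flight housing and shares the FL libraries with the comparison above. Over all 29 libraries edgeR called 2 of 987 miRNAs (0.203%), both lower in FL. DESeq2 called 12 (1 higher, 11 lower), and neither of the 2 was among them. The edgeR calls were miR-208a-3p (log2 difference -6.21 ± 1.28) and miR-208a-5p (-6.51 ± 1.36, edgeR adjusted p = 0.0203 for both), which are encoded within a cardiac myosin heavy chain gene. Both calls were lost without the heart-like VGC 13, and also without any 1 of 8 FL libraries (all but FL 3 and FL 4). Without VGC 13 and the other 4 libraries miR-208a-3p was at 1.07, 1.65 and 2.92 in FL and at 1.19, 2.29 and 31.1 in VGC, and it was not called (-1.94 ± 0.64, edgeR adjusted p = 0.391). Removing the mixed pools alone left VGC 13 in place and raised the number of calls to 15 of 938, 1 higher and 14 lower, while leaving out FL 3 or FL 4 alone gave 16 and 9.

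The 5 next miRNAs by p over all libraries were also read without the libraries with the profile of another tissue. miR-137-3p, enriched in neurons, went from -2.35 ± 0.67 to -0.13 ± 0.30, and miR-153-3p from -2.06 ± 0.60 to -0.39 ± 0.46. miR-483-5p went from 4.67 ± 1.36 to -0.02 ± 0.76. miR-215-5p, the seed relative of miR-192-5p, was -2.44 ± 0.72 over all libraries and -1.04 ± 0.52 with a kidney profile, where VGC 16 reached 13.9 and VGC 5 4.58, and FL lay at 0.598, 1.49 and 4.18. miR-295-3p (-3.98 ± 1.18) was at 0 to 0.536 in the libraries with a kidney profile. None of the 5 passed over all libraries (edgeR adjusted p = 0.190 for each).

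Among the 24 libraries with a kidney profile 6 of 925 miRNAs (0.649%) were called between FL and VGC, 1 higher and 5 lower, and DESeq2 called 7. The edgeR count was 3 without any 1 of FL 1, FL 5, FL 11, FL 16 or VGC 1, 3 with an age term (1 higher, 2 lower) and 3 without the mixed pools as well. The one higher was miR-802-3p. Its levels were 3.83, 25.1 and 43.4 in FL, 6.38, 13.4 and 20.6 in HGC and 3.33, 5.73 and 8.07 in VGC. In FL 8 of 9 libraries lay above every VGC library and 6 lay above every HGC library, and FL 2 was the low one at 3.83. The log2 difference between FL and VGC was 1.98 ± 0.37 (3.95-fold, edgeR adjusted p = 0.0032), and between FL and HGC it was 0.77 ± 0.31 (1.71-fold, edgeR adjusted p = 0.327).

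Over all 29 libraries the tests disagreed on miR-802-3p. By edgeR its log2 difference between FL and VGC was -0.34 ± 0.73 (edgeR adjusted p = 0.913), with 205 in the liver-like VGC 4, whereas DESeq2 called it higher at 1.93 (DESeq2 adjusted p = 0.0016). Without VGC 4 alone it was 2.14 by edgeR and not called (edgeR adjusted p = 0.0753). It was 2.19 without the mixed pools and 2.05 with the plate as a term among the libraries with a kidney profile, and it passed in both (edgeR adjusted p = 0.0146 and 0.0392). It was 1.79 without FL 4 and HGC 16 (edgeR adjusted p = 0.0048), where FL 4 was the highest FL library.

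miR-802 is also abundant in liver, so miR-122-5p was read beside it. In VGC 4 the 205 of miR-802-3p came with 129830 of miR-122-5p. In FL 16 a level of 28.3 came with 93.6 of miR-122-5p, in FL 12 a level of 24.3 came with 51.4, and in VGC 1 a level of 4.42 came with 245. FL 4 was the highest library with a kidney profile in both, at 43.4 and 1150. The part of liver RNA in the difference was not tested beyond these values.

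The other arm of the same hairpin, miR-802-5p, was more abundant. It stood at 38.5, 117 and 162 in FL, 42.6, 81.0 and 134 in HGC and 31.6, 42.0 and 69.6 in VGC. In FL 7 of 9 libraries lay above every VGC library, and only 1 lay above every HGC library. The log2 difference between FL and VGC was 1.15 ± 0.31 (2.22-fold) and missed the threshold (edgeR adjusted p = 0.0958), though DESeq2 called it (adjusted p = 0.0328), and over all 29 libraries it was -0.31 ± 0.61 (edgeR adjusted p = 0.912). Between FL and HGC it was 0.27 ± 0.26.

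**Figure D2:**
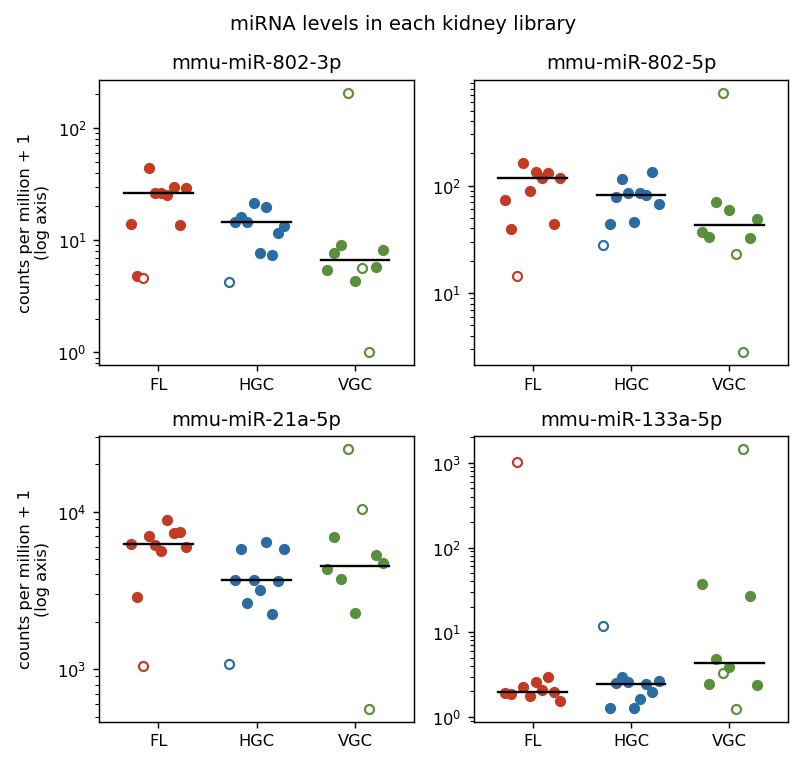
Levels of miR-802-3p, miR-802-5p, miR-21a-5p and miR-133a-5p in the 29 libraries by arm, as TMM-scaled CPM + 1 on a log axis. Each point is 1 library, open points are the 5 libraries with the profile of another tissue, and bars are medians of the filled points. For miR-802-3p 8 of the 9 filled FL points lie above all filled VGC points, while for miR-133a-5p 2 filled VGC points stand above all other filled points.

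The 5 miRNAs called lower in FL than in VGC among the libraries with a kidney profile all mark striated muscle or heart. They were miR-133a-5p (log2 difference -3.45 ± 0.57), miR-1a-3p (-3.29 ± 0.57, edgeR adjusted p = 0.0013 for both), miR-499-5p (-2.40 ± 0.58), miR-133a-3p (-1.99 ± 0.44) and miR-133b-3p (-1.74 ± 0.42). Over all 29 libraries, with the diaphragm-like FL 3 and the heart-like VGC 13, edgeR called none of the 5. Its values were -0.71 ± 1.43, -0.56 ± 1.35, -3.39 ± 1.28, 0.38 ± 1.47 and 1.06 ± 1.39 in the same order. DESeq2 did call these 5 over all 29 libraries, lower in FL. It put miR-133a-3p at -1.60 and miR-133b-3p at -1.43 (DESeq2 adjusted p = 0.0342 and 0.0496). miR-1a-3p was at 54.8, 81.0 and 167 in FL and at 86.4, 251 and 3269 in VGC. The high VGC libraries were VGC 1 at 3269 and VGC 14 at 1508, and the other 4 lay at or below 255. miR-499-5p likewise reached 36.7 in VGC 14 and 7.87 in VGC 1, against 0.638, 1.26 and 3.60 in FL. VGC 1 was in a mixed pool, and with the plate as a term none of the 5 was called. With an age term miR-499-5p, miR-133a-3p and miR-133b-3p were not called (edgeR adjusted p = 0.182, 0.0788 and 0.112). With the plate as a term miR-1a-3p had a log2 difference of -1.29 (edgeR adjusted p = 0.947). The part of muscle RNA in these libraries was not tested.

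By the fold and effect size rule 9 of 987 miRNAs (0.912%) were past the limits between FL and VGC over all libraries, and 0 with a pseudocount of 10 in place of 1. Of these 8 were higher, namely miR-551b-3p, miR-484, miR-615-3p, miR-802-3p, miR-190a-5p, let-7f-2-3p, miR-222-3p and the islet and epithelial miR-375-3p (log2 ratios 1.06 to 1.48), and miR-124-3p, enriched in neurons, was lower (-2.63). Scaled to the miRNA total there were also 9, with 5 higher and 4 lower. Among the libraries with a kidney profile 4 were past it (miR-802-3p, miR-802-5p, miR-124-3p and miR-1a-3p), of which 2 were shared, which is 22.2% of the 9 and 50% of the 4. The Wilcoxon test called 0 in both sets, with 37 at an unadjusted p below 0.05 over all libraries and 31 with a kidney profile.

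Groups of miRNAs with known roles were then counted. In all, 96 of the 97 members of 9 lists were tested. Over all libraries none of them was called between FL and HGC (edgeR), where 83 of all 987 miRNAs had an unadjusted p below 0.05, and 1 was called lower between FL and VGC, the cardiac miR-208a-3p, beside 2 of all 987 (0.203%). The following counts are for the libraries with a kidney profile, where of all 925 miRNAs 102 had an unadjusted p below 0.05 against HGC and 52 against VGC.

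The list of the tubule and epithelium holds the miR-30 and miR-200 families, which maintain epithelial identity, the Hox-linked miR-10 and miR-196, and miR-802. Of its 24 members 0 were called between FL and HGC (2 at an unadjusted p below 0.05, beside 102 of all 925 miRNAs), and 1, miR-802-3p, was called higher than in VGC, beside 1 of all 925 (0.108%), which is the same miRNA. The medians of the log2 differences were -0.01 and -0.07, beside -0.01 and 0.07 for all miRNAs tested. miR-429-3p stood at 9962, 15839 and 24625 in FL and at 10165, 13559 and 22122 in HGC. miR-30c-5p stood at 4178, 8533 and 11996 in FL and at 7024, 9311 and 19390 in HGC. Both overlapped widely, with log2 differences of 0.14 ± 0.19 and -0.33 ± 0.21. FL 4 was the lowest library in the summed level of this list, at 46084, against 66885 to 114568 in the other 23.

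The fibrosis and matrix list holds miR-21, the miR-29 family, which restrains collagen synthesis, the miR-199 and miR-214 cluster and the miR-132 and miR-212 cluster. Of its 13 tested members 0 were called in either comparison (edgeR), 4 and 1 had an unadjusted p below 0.05, beside 102 and 52 of all 925, and the medians were 0.12 against HGC and 0.05 against VGC. miR-29a-3p stood at 13702, 25179 and 37292 in FL, 15402, 19481 and 32545 in HGC and 17520, 21368 and 24165 in VGC, with 5 of 9 FL libraries above every VGC library. Its log2 difference was 0.18 ± 0.17 against HGC and 0.24 ± 0.19 against VGC. miR-29b-3p (0.24 ± 0.22 and 0.31 ± 0.24) had the same sign.

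The stress and hypoxia list holds the hypoxia-induced miR-210, the p53 target miR-34 and the miR-183 cluster. Its medians were -0.05 and -0.05, with 0 of 10 called in either comparison and 1 at an unadjusted p below 0.05 in each. miR-34a-5p was at 1627, 3503 and 6913 in FL and at 1880, 3000 and 5743 in HGC, and miR-182-5p at 223, 404 and 625 and at 280, 464 and 527. For both the HGC range lay within the FL range.

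The vessel wall list had medians of 0.06 and -0.13 and 0 of 7 called (1 and 0 at an unadjusted p below 0.05). The smooth muscle miR-143-3p was at 28557, 40064 and 47755 in FL, 21080, 27469 and 47455 in HGC and 24879, 42718 and 60833 in VGC, so that FL was above HGC in its median (log2 difference 0.34 ± 0.16, edgeR adjusted p = 0.425) and not above VGC (-0.17 ± 0.18). The endothelial miR-126a-3p differed by -0.12 ± 0.17 and -0.23 ± 0.19.

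The list of proliferation clusters holds the miR-17 and miR-106b clusters, which are known for promoting the cell cycle. Of its 10 members 9 lay above 0 against HGC, beside 445 of all 925 miRNAs, with 5 at an unadjusted p below 0.05, beside 102 of the 925, 0 called (edgeR, DESeq2 0 of all miRNAs) and a median of 0.26. Against VGC 7 of 10 lay above 0, beside 527 of the 925, with 1 at an unadjusted p below 0.05, beside 52 of the 925, and a median of 0.15. Over all libraries the list was 9 of 10 above 0 against HGC and 1 of 10 against VGC, with medians of 0.30 and -0.31. The summed level of the list was highest in FL 4, at 14977, and 7427 to 12790 in the other FL libraries with a kidney profile. Without FL 4 and HGC 16 again 9 of 10 lay above 0 against HGC, with 4 at an unadjusted p below 0.05 and a median of 0.21. miR-106b-5p stood at 1221, 1790 and 2297 in FL, at 1134, 1366 and 1742 in HGC and at 1258, 1888 and 2003 in VGC, and 6 of 9 FL libraries lay above every HGC library. Its log2 difference from HGC was 0.33 ± 0.13 (edgeR adjusted p = 0.329) and from VGC -0.01 ± 0.15. miR-93-5p, from the same transcript, differed by 0.11 ± 0.18 and 0.28 ± 0.20.

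The blood lists were read for cells carried in the tissue. Of the 7 leukocyte miRNAs 6 lay above 0 against HGC, beside 445 of all 925 miRNAs, with a median of 0.97, 3 had an unadjusted p below 0.05, beside 102 of the 925, and 0 were called. Against VGC 5 lay above 0, beside 527 of the 925, with a median of 0.60, 2 had an unadjusted p below 0.05, beside 52 of the 925, and 0 were called. Without FL 4 and HGC 16 the direction turned, with 2 of 7 above 0 and a median of -0.23 against HGC, and 0 of 7 above 0 and a median of -0.50 against VGC, again with 0 called. miR-150-5p was at 320, 563 and 13190 in FL and at 677, 845 and 1379 in HGC, and 6 of the 9 FL libraries lay below every HGC library. miR-146a-5p, a brake on inflammatory signalling, was at 319, 522 and 3663 in FL and at 423, 608 and 1358 in HGC. The red cell list was at a median of -0.26 against HGC and 0.26 against VGC with 0 of 5 called in either (0 at an unadjusted p below 0.05). miR-451a stood at 22469, 43147 and 55443 in FL, 26437, 39110 and 76276 in HGC and 28328, 33769 and 49898 in VGC, and its partner miR-144-3p differed by -0.14 ± 0.34 and 0.20 ± 0.38.

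In the list of other tissues 4 of 17 were called lower against VGC (the muscle and heart miRNAs named above), beside 5 of all 925 miRNAs (0.541%), and 0 against HGC. miR-9-5p, enriched in neural tissue, was at 661, 1098 and 1508 in FL, 648, 1022 and 1552 in HGC and 1106, 1342 and 1844 in VGC, with log2 differences of -0.00 ± 0.17 and -0.25 ± 0.19. miR-133a-3p was at 300, 448 and 919 in FL, 270, 608 and 1728 in HGC and 513, 984 and 4960 in VGC. miR-132-5p, the strand opposite miR-132-3p, was among the smallest p between FL and HGC in these libraries, at 0.461, 0.850 and 1.75 in FL and 0.679, 1.91 and 7.00 in HGC (-1.37 ± 0.37, edgeR adjusted p = 0.149).

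The division of counts between RNA classes differed most for tRNA. Its share was 8.22% ± 3.65 (SD, n = 10) in FL, 24.4% ± 27.8 (SD, n = 10) in HGC and 14.9% ± 16.7 (SD, n = 9) in VGC. The difference between FL and HGC was -16.2 percentage points (permutation test with 100000 resamples, 2-sided, p = 0.0296, adjusted over 14 comparisons p = 0.354). With a kidney profile the shares were 7.19% ± 1.76 (SD, n = 9) in FL and 17.7% ± 19.3 (SD, n = 9) in HGC (exact permutation p = 0.00934, adjusted p = 0.131), and 7.77% ± 6.19 (SD, n = 6) in VGC. HGC 16 at 67.9% and HGC 1 at 84.0% lay far above the other HGC libraries, and 4 of the 9 HGC libraries with a kidney profile (HGC 3, HGC 11, HGC 12 and HGC 14) lay within the FL range of 5.14% to 9.77%. Without HGC 16 the HGC share with a kidney profile was 11.5% ± 4.78 (SD, n = 8) and the difference -4.29 percentage points (exact permutation p = 0.0187, adjusted p = 0.261). The FL and HGC shares without the mixed pools are those with a kidney profile, since both leave out FL 3 and HGC 1, and in VGC the share was 11.3% ± 9.50 (SD, n = 6). The piRNA share was 1.99% ± 0.388 in FL and 2.54% ± 0.757 in HGC over all libraries (SD, n = 10 each, permutation p = 0.0506, adjusted p = 0.354). It was 1.90% ± 0.259 in FL and 2.37% ± 0.545 in HGC with a kidney profile (SD, n = 9 each, exact permutation p = 0.0326, adjusted p = 0.228). With tRNA taken out of the total it was 2.18% ± 0.512 in FL and 5.61% ± 7.44 in HGC over all libraries (SD, n = 10 each, permutation p = 0.0415, adjusted over 12 comparisons p = 0.498). The medians there were 2.08% and 2.66%, and the adipose-like HGC 1 was the highest at 25.8%. No share passed over the 14 comparisons. The miRNA share was 13.8% ± 3.38 (SD, n = 10) in FL and 11.7% ± 5.61 (SD, n = 10) in HGC, with tRNA taken out of the total 15.1% ± 3.58 and 14.6% ± 3.63, and with a kidney profile and without HGC 16 14.1% ± 3.49 (SD, n = 9) and 14.0% ± 3.04 (SD, n = 8).

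**Figure D3:**
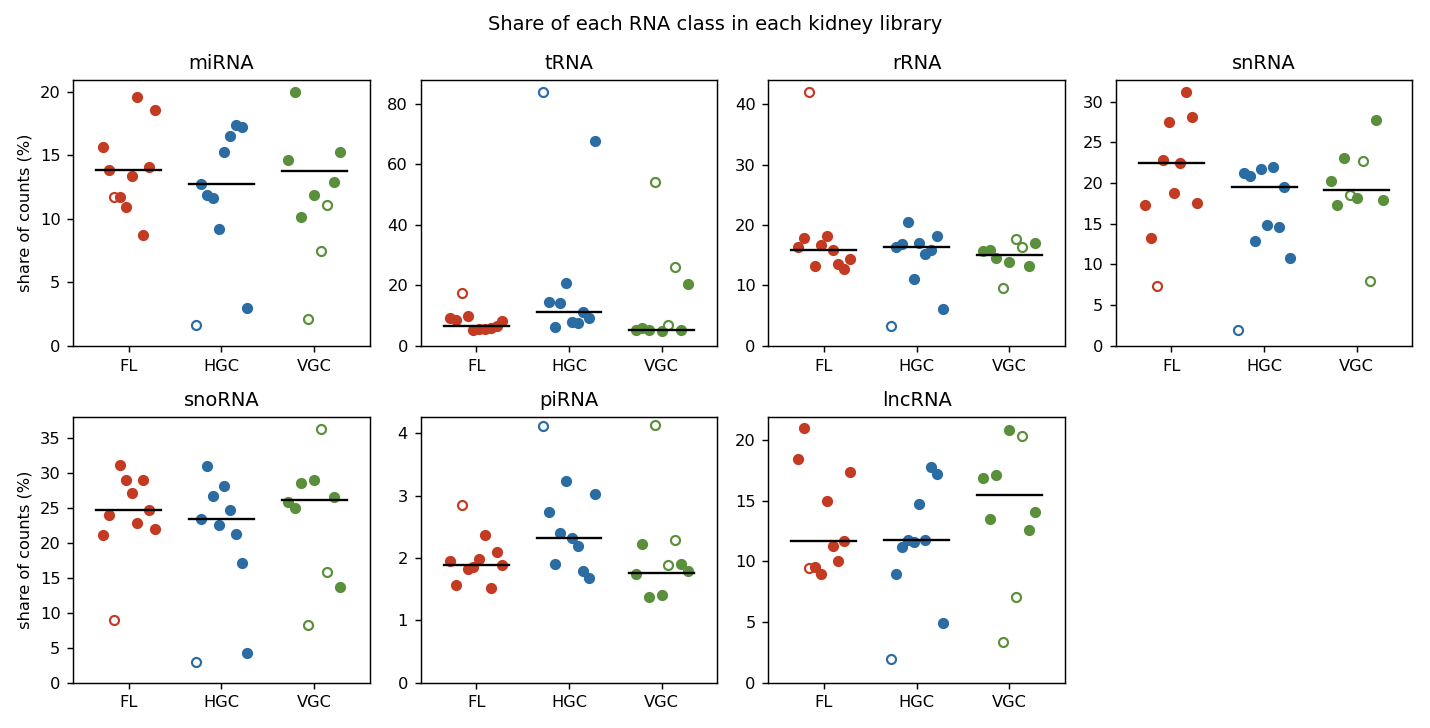
Share of each RNA class in the counts of the 29 libraries by arm, in percent on linear axes that start at 0. Each point is 1 library, open points are the 5 libraries with the profile of another tissue, and bars are medians of the filled points. In the tRNA panel the 2 highest points are HGC 1 and HGC 16 at 84.0% and 67.9%, and all FL libraries lie at or below 17.5%.

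Reads counted under piRNA names were the only class with calls between FL and HGC over all libraries by edgeR with TMM and the filter on low counts, while DESeq2 also called 33 tRNA and 15 lncRNA features. Of 795 piRNA features 18 (2.26%) were called by edgeR, all lower in FL, and 0 were called between FL and VGC (78 at an unadjusted p below 0.05, DESeq2 1). DESeq2 called 22 between FL and HGC, 21 of them lower. The edgeR count was 24 without the mixed pools (1 higher, 23 lower), 8 with scaling to the total of the 7 classes (3 higher, 5 lower), 0 with the plate as a term, 0 without the adipose-like HGC 1, 6 without FL 1, 9 without FL 5, 10 without FL 4, FL 11 or HGC 16 and 11 without FL 12. Of the 18, 16 are named oocyte_piRNA in the annotation, a name that 36.9% of the 795 features carry. The name records where a sequence was first found and does not show that these kidneys made piRNAs.

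oocyte_piRNA2286 was at 8314, 13534 and 25763 in FL, at 11132, 25692 and 139593 in HGC and at 6256, 13915 and 21498 in VGC. In HGC 4 of 9 libraries lay above every FL library, the others overlapped with FL, and FL and VGC overlapped. Its log2 difference from HGC was -2.71 ± 0.56 over all libraries (edgeR adjusted p = 0.0093) and -2.00 ± 0.44 with a kidney profile (edgeR adjusted p = 0.0111). oocyte_piRNA1479 (-2.59 ± 0.54 and -1.99 ± 0.46) and oocyte_piRNA905 (-2.56 ± 0.57 and -1.75 ± 0.42) behaved alike, whereas oocyte_piRNA1710 went from -3.41 ± 0.73 to -1.67 ± 0.50 and was no longer called (edgeR adjusted p = 0.0526).

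Among the libraries with a kidney profile 28 of 721 piRNA features (3.88%) were called between FL and HGC, 27 lower and 1 higher, of which 14 were shared with the 18 (77.8% of the 18 and 50% of the 28). The count was 11 without HGC 5 or HGC 16, 16 without FL 11 and 18 with an age term, and DESeq2 called 27, of which 23 were lower. The one higher was piR-116342, at 6.10, 12.3 and 23.7 in FL, 1.93, 2.92 and 13.3 in HGC and 7.51, 12.1 and 16.2 in VGC (1.40 ± 0.33, edgeR adjusted p = 0.0122). The FL and HGC ranges overlapped. piR-1095 was also called (-5.40 ± 1.12, edgeR adjusted p = 0.0111) and rested on HGC 16, where it was 7808 against 5.30 to 39.1 in the other libraries with a kidney profile. Its log2 difference was -0.09 without FL 4 and HGC 16 in this set, and by DESeq2 it was -0.03 and not called with all 24 libraries.

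The tRNA share was high in most of the libraries in which the called piRNA features were high. The median log2 level of the 27 lower features, relative to each feature's median over the libraries, was 2.86 in HGC 1, 2.68 in HGC 16, 1.80 in HGC 5 and 1.29 in HGC 4, whose tRNA shares were 84.0%, 67.9%, 20.6% and 14.2%. It was -0.34 in HGC 3 and -0.24 in HGC 12, whose tRNA shares were 6.38% and 7.65%. The liver-like VGC 4, with a tRNA share of 54.1%, stood at 1.78, and the heart-like VGC 13, at 26.2%, stood at 1.08. HGC 2 was at 0.74 with a share of 14.6% and HGC 14 at 0.81 with 9.18%, whereas VGC 16 was at 0.45 with 20.4%. The part of the tRNA share in these calls was not tested. Without FL 4 and HGC 16, 9 features were still called, and with the plate as a term 0 were called (oocyte_piRNA2286, log2 difference -1.73, edgeR adjusted p = 0.181). FL libraries were on plates 3, 5, 6, 7 and 8, while 4 of the 10 HGC libraries were on plates 1 and 2.

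**Figure D4:**
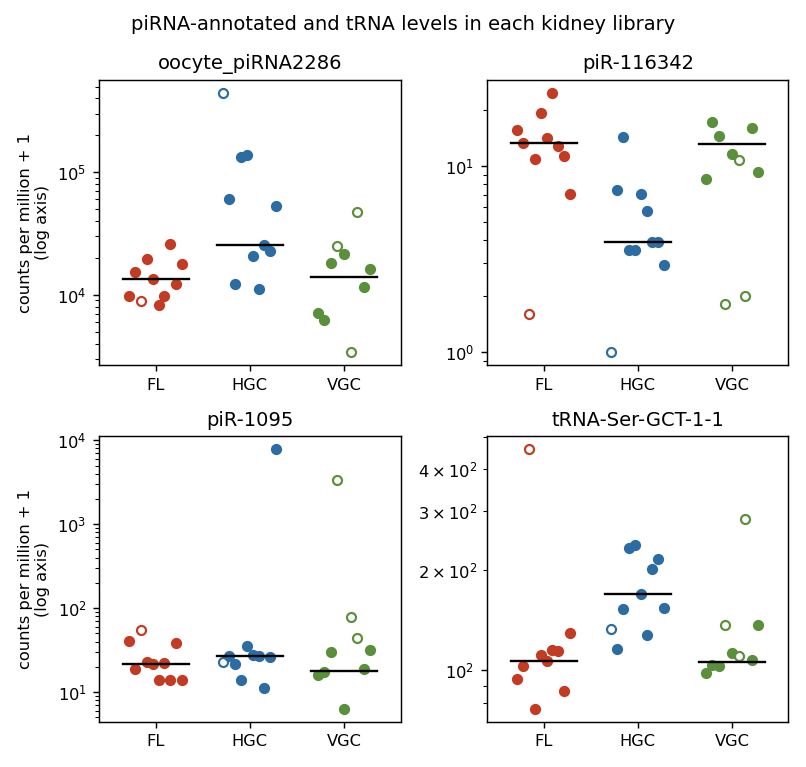
Levels of oocyte_piRNA2286, piR-116342, piR-1095 and tRNA-Ser-GCT-1-1 in the 29 libraries by arm, as TMM-scaled CPM of the class + 1 on a log axis. Each point is 1 library, open points are the 5 libraries with the profile of another tissue, and bars are medians of the filled points. For tRNA-Ser-GCT-1-1 8 of the 9 filled FL points lie below all filled HGC points, and in the piR-1095 panel the HGC point at 7808 is HGC 16.

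tRNAs carry amino acids to the ribosome, and small RNA libraries read mainly their fragments. Over all 29 libraries 0 of 403 tRNA features (0%) were called between FL and HGC by edgeR (66 at an unadjusted p below 0.05) and 33 by DESeq2, all lower. With a kidney profile edgeR called 6 (1.49%) lower, none of them among those 33. All 6 were copies of the serine tRNA with anticodon GCT. Scaled to the total of the 7 classes in place of TMM, 196 of the 403 were called in the same libraries, all lower, with a median log2 difference of -1.12 over all tRNA features. Of the 7 copies of this tRNA the counts form 5 distinct rows, so that the 6 calls are not independent. Leaving out HGC 12 gave 21 calls, 13 higher and 8 lower, and leaving out any other single library gave 6. It was 0 with the plate as a term, and over the libraries outside the mixed pools it was 0. tRNA-Ser-GCT-1-1 was at 75.7, 105 and 128 in FL, 115, 169 and 236 in HGC and 97.4, 105 and 136 in VGC. In FL 8 of 9 libraries lay below every HGC library, while FL and VGC overlapped (log2 difference from HGC -0.78 ± 0.17, 0.583-fold, edgeR adjusted p = 0.0086, and from VGC -0.10 ± 0.19).

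The level of tRNA-Ser-GCT-1-1 was read beside the tRNA share. Among the libraries with a kidney profile HGC 16, with the highest share (67.9%), was at 152. HGC 5 and HGC 4 were highest at 236 and 231, with shares of 20.6% and 14.2%. The part of the tRNA share in the serine tRNA calls was not tested. Over all 29 libraries the log2 difference of tRNA-Ser-GCT-1-1 was -0.32 ± 0.28 (edgeR adjusted p = 0.560), with the diaphragm-like FL 3 at 458. Without FL 4 and HGC 16 it was -0.78 (edgeR adjusted p = 0.0065), and with the plate as a term it was -0.76 and not called (edgeR adjusted p = 0.0702). Between FL and VGC 0 tRNA features were called (28 at an unadjusted p below 0.05 over all libraries, DESeq2 0).

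In the remaining classes edgeR called nothing in either comparison over all libraries, but it called 38 of 213 rRNA features lower in FL than in VGC without the diaphragm-like FL 3, and 16 lncRNA features between FL and HGC without a filter. Between FL and HGC and between FL and VGC the numbers at an unadjusted p below 0.05 were 17 and 5 of 240 rRNA features (DESeq2 0 and 0), 87 and 47 of 812 snRNA features (DESeq2 0 and 0), 64 and 35 of 880 snoRNA features (DESeq2 0 and 0) and 252 and 328 of 3733 lncRNA features (DESeq2 15 and 0). With a kidney profile they were 20 and 3, 218 and 3, 126 and 4, and 280 and 117, again with 0 calls by edgeR, while DESeq2 called 26 snRNA features between FL and HGC, 24 of them lower. Without the mixed pools edgeR called 3 lncRNA features lower in FL than in VGC and 0 in the other comparisons of these classes. Without FL 4 and HGC 16, the snRNA features at an unadjusted p below 0.05 between FL and HGC went from 218 to 59.

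The features with the smallest p in these classes were mostly high in HGC 16 or near 0 in most libraries. The snRNA Gm26055 was at 7.07, 8.28 and 23.3 in FL and at 11.9, 17.0 and 273 in HGC, with 6 of 9 FL libraries below every HGC library (-2.15 ± 0.58, edgeR adjusted p = 0.0615). Gm23307, also an snRNA, was at 9.99, 15.2 and 26.3 in FL, 18.4, 28.1 and 50.9 in HGC and 11.0, 15.8 and 42.1 in VGC, with 7 of 9 FL libraries below every HGC library (-0.89 ± 0.27, edgeR adjusted p = 0.0615). The snoRNA Gm22673 was at 190 in HGC 16 and at most 7.85 in the others with a kidney profile. A fragment of the nuclear lncRNA Neat1 was at 58.2 in HGC 16 and at most 1.12 elsewhere among them (-6.13 ± 1.29 over all libraries, edgeR adjusted p = 0.124). oocyte_piRNA243 was at 13632 in HGC 16 and was the piRNA feature with the smallest p between FL and VGC (-4.29 ± 1.11 over all libraries, edgeR adjusted p = 0.238).

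The other leading features stayed under the threshold as well. tRNA-Val-AAC-1-2 was at 9711, 14902 and 25412 in FL and at 6849, 17216 and 53912 in HGC (-1.09 ± 0.35 over all libraries, edgeR adjusted p = 0.273). tRNA-Phe-GAA-2-1 differed from VGC by -1.78 ± 0.62 over all libraries and by -0.10 ± 0.37 with a kidney profile. The rRNA features Gm26405 (2.56 ± 0.82 against HGC) and Gm24647 (-2.53 ± 0.80 against VGC), the snoRNA Gm26088 (4.09 ± 1.21 against VGC) and the lncRNA Gm13264 (-4.25 ± 1.04 against VGC) were all at or below 3.44 in the libraries with a kidney profile.

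The study also asked whether the response to flight depended on age. For miRNAs the test of the difference between the FL against HGC effects at 8 and at 3 months called 0 of 987 by edgeR (122 at an unadjusted p below 0.05), and 0 of 925 with a kidney profile (66). The log2 difference of miR-802-3p between FL and HGC was 0.36 ± 0.42 at 3 months and 1.16 ± 0.41 at 8 months with a kidney profile, and the difference between the ages, 0.81 ± 0.58, did not pass (edgeR adjusted p = 0.786). For miR-802-5p it was 1.01 ± 0.49 (edgeR adjusted p = 0.693). miR-21a-5p was 0.82 ± 0.32 at 3 months and 0.49 ± 0.31 at 8 months, with a difference of -0.33 ± 0.44.

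Live return was compared with the TERM extraction, whose 28 kidney libraries came from 10 FL mice of the same flight, euthanised on orbit 22 to 24 days after launch, and from 9 HGC and 9 VGC mice on Earth, with the carcasses, apart from the spleen, frozen before dissection. Each TERM arm held mice of 3 and of 8 months, and the interaction was fitted without an age term. The extractions differ in time in flight, in re-entry and in freezing, which cannot be told apart. Over all libraries the interaction called 0 of 1103 miRNAs by edgeR (73 at an unadjusted p below 0.05), and without the mixed pools 0 of 1049 (102 at an unadjusted p below 0.05). Among the libraries with a kidney profile, which were 8 FL and 9 HGC in TERM, it called 16 of 1049 (1.53%), 14 with a higher FL to HGC ratio in LAR. These included miR-1a-3p (4.08 ± 1.13, edgeR adjusted p = 0.0486) and miR-217-5p (7.13 ± 1.70, edgeR adjusted p = 0.0401), which mark muscle and exocrine pancreas. In TERM itself, with a kidney profile, the log2 difference of miR-1a-3p was -4.12 ± 0.90 (edgeR adjusted p = 0.0109) and that of miR-217-5p -3.89 ± 1.27 (edgeR adjusted p = 0.0742). Over all libraries the TERM values were 0.03 ± 1.28 and 2.57 ± 1.49 and the interactions 4.99 ± 1.87 and -0.42 ± 2.02, none of them called. In LAR miR-217-5p was at 153 in FL 4 and at most 7.82 in the other libraries with a kidney profile, and the part of FL 4 in this interaction was not tested. Between FL and HGC in TERM edgeR called 0 of 1103 over all libraries (37 at an unadjusted p below 0.05), 0 of 1049 without the mixed pools (99 at an unadjusted p below 0.05) and 36 of 1049 (3.43%) with a kidney profile, 35 of them lower in FL. The TERM libraries HGC 11, HGC 13 and HGC 16 had correlations with the kidney profile of 0.67, 0.72 and 0.53, and their part in the interaction was not tested.

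For miR-802-3p, miR-21a-5p and miR-192-5p the interaction was not called. miR-802-3p had a log2 difference of 0.53 ± 0.42 between FL and HGC in TERM and an interaction of 0.30 ± 0.58 (edgeR adjusted p = 0.862). miR-21a-5p had 0.33 ± 0.22 in TERM and an interaction of 0.34 ± 0.31 (edgeR adjusted p = 0.644). miR-192-5p had -0.01 ± 0.22 in TERM and an interaction of 0.50 ± 0.31 (edgeR adjusted p = 0.408).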

How the data were processed

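Each library is 1 piece of kidney from 1 mouse, sequenced as small RNA on a BGISEQ sequencer after library preparation with an MGI kit. Per the labels and the study's methods, the authors mapped reads to GRCm39 and quantified them with miRMaster, with miRNAs from miRBase. The deposited miRNA table holds expected counts made by the authors, of which 0.790% of values were not whole because reads were split between miRNAs. They were rounded. The other 6 deposited tables hold whole-number counts per feature, and how reads shared by near-identical features were divided is not given in the sources used here, so copies of a tRNA, rRNA or snRNA may share reads. No molecular identifier is named in the sources used here. The deposited tables of 2 further RNA classes were not used.

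Features with at least 5 counts in 10% of the libraries of any arm were kept. Each class was fitted on the 29 libraries by arm with edgeR 4.0.16 (TMM, quasi-likelihood test) in R 4.3.3 and adjusted by Benjamini-Hochberg over all features of the class, with a threshold of 0.05. DESeq2 1.42.0 was an alternative. Standard errors were taken from the log2 difference and its F statistic. The study's fold and effect size rule was applied to counts scaled to the total of the 7 classes + 1. The study scaled to mapped reads, a total not used here, so this is an approximation, and scaling to the miRNA total was an alternative. Shares were compared by 2-sided permutation tests in SciPy 1.17.1. The edgeR step was tested on simulated data. Pools and plates came from the study's sample sheet.

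The lists, their members and the named features were chosen with earlier results of these data known. Named were called features (up to 10 per direction for miRNAs and 4 in other classes), the 5 smallest p where fewer than 5 miRNAs were called (1 in other classes), the miRNAs past the rule, the markers, the 2 to 4 most abundant members of each list and the 10 most abundant miRNAs. Mouse numbers repeat between arms but name different animals, and the deviations of same-numbered libraries had correlations from -0.31 to 0.49 (FL and HGC) and from -0.57 to 0.53 (FL and VGC), so the numbers do not pair them. No 2 libraries of an arm agreed within counting noise. The depth of 1.13 to 11.2 M miRNA counts limits features below about 1 CPM. Alternatives were the other normalizations, filters, covariates and subsets of libraries reported in the closing section.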

Additional observations from a re-analysis of the deposited data

Results flagged for a closer look

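In an arm of 4 to 10 libraries a library was listed when its gap to the next one was too wide for the range of the arm (Dixon's test at 95%). In all, 192 arms were checked among the libraries with a kidney profile, and chance lists about 1 in 20, so most weight lies on libraries that recur. The causes were not tested.

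HGC 16 was listed 15 times. Its tRNA share was 67.9%, and its levels were 286 for miR-133b-3p, 1628 for miR-3473e, 7.00 for miR-132-5p, 1358 for miR-146a-5p, 17.3 for miR-5128 and 0.412 for miR-1a-1-5p. In other classes it held 28378 of oocyte_piRNA1710, 7808 of piR-1095, 13632 of oocyte_piRNA243, 95.6 of tRNA-Phe-GAA-2-1, 273 of Gm26055, 190.5 of Gm22673, 58.2 of Neat1 and 1.15 of Gm13264.

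VGC 16 was listed 8 times, with 20.4% of its counts in tRNA and 13.6% in snoRNA, and with levels of 13.9 for miR-215-5p, 1258 for miR-106b-5p (its lowest value in VGC), 0.509 for miR-295-3p, 39.3 for Gm26055, 42.1 for Gm23307 and 7.85 for Gm22673. FL 4 was listed 5 times, at 13190 for miR-150-5p, 3663 for miR-146a-5p, 809 for miR-144-3p, 2.86 for miR-153-3p and 0.536 for miR-295-3p.

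VGC 14 stood out for the heart miRNAs, at 36.7 for miR-499-5p, 31.1 for miR-208a-3p and 0.654 for miR-208a-5p. HGC 14 was at 15.0 for miR-208a-3p and 1079 for miR-144-3p. FL 16 was at 2.52 for miR-5128, 23.3 for Gm26055 and 266 for oocyte_piRNA243. HGC 4 was at 8648 for miR-194-5p and 0.434 for miR-208a-5p. HGC 5 was at 224020 for oocyte_piRNA1479 and 0.226 for miR-675-3p. HGC 3 was at 13.3 for piR-116342 and 0.1001 for Gm26088. FL 2 was at 4992 for oocyte_piRNA1710 and 6913 for miR-34a-5p.

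The remaining single values were 0.0972 in FL 12 for both miR-208a-5p and miR-675-3p, 2368 in VGC 3 for miR-146a-5p, 49898 in VGC 5 for miR-451a, 0.576 in VGC 1 for miR-675-3p, 1.23 in FL 1 for miR-1a-1-5p and 0.185 in HGC 13 for Gm26405.

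The difference between the FL against HGC effects in LAR and TERM was tested by an interaction term and called 16 miRNAs among the libraries with a kidney profile, 0 without the mixed pools (102 at an unadjusted p below 0.05) and 0 over all libraries (73 at an unadjusted p below 0.05, edgeR).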

How the results depend on the processing

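Counts of called features are given with the value over all 29 libraries first. For miRNAs between FL and HGC 0 became 8 with scaling to the total of the 7 classes. For miRNAs between FL and VGC 2 became 12 with DESeq2 (neither of the 2 among them), 1 with the stricter edgeR filter, 15 without the mixed pools and 0 with an age term or a plate term. With a kidney profile it was 6, then 1 with the plate term, 3 with the age term, 3 without the mixed pools, 7 with DESeq2, 7 with that scaling and 7 without FL 4 and HGC 16. The interaction with extraction went from 0 to 16 with a kidney profile and was 0 without the mixed pools. For tRNA between FL and HGC 0 became 33 with DESeq2. With a kidney profile it was 6 (none of them among the 33), also 6 with the age term, with DESeq2 and without the mixed pools, 7 without FL 4 and HGC 16, 196 with that scaling (all lower) and 0 with the plate term. For snRNA between FL and HGC 0 became 26 with DESeq2 and a kidney profile. For piRNA between FL and HGC 18 became 8 with that scaling (3 higher), 30 without a filter, 24 without the mixed pools, 28 with a kidney profile, within that set 28 without the mixed pools, 18 with the age term, 9 without FL 4 and HGC 16, and 0 with the plate term with or without the 5 libraries. For piRNA between FL and VGC 0 became 1 with DESeq2 and 13 without a filter. For lncRNA 0 became 15 with DESeq2 and 16 without a filter between FL and HGC, and 3 without the mixed pools between FL and VGC. The fold and effect size rule named 2 in place of 1 when scaled to the miRNA total (FL and HGC), and 0 with a pseudocount of 10, 5 without the mixed pools and 4 with a kidney profile in place of 9 (FL and VGC). The alternatives with a kidney profile beyond the plain one were chosen after the data were seen.

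Leaving out 1 library in turn gave 0 to 16 miRNA calls between FL and VGC (16 without FL 3, 9 without FL 4, 0 without VGC 13 or any 1 of the other 8 FL libraries), 0 to 4 for the interaction with age (4 without FL 12), 0 to 38 rRNA calls between FL and VGC (38 without FL 3), 0 to 22 piRNA calls between FL and HGC (0 without HGC 1) and 0 to 2 between FL and VGC (2 without HGC 16). Among the libraries with a kidney profile the ranges were 3 to 7 for miRNAs between FL and VGC (3 without FL 1, FL 5, FL 11, FL 16 or VGC 1), 11 to 36 for piRNA between FL and HGC (11 without HGC 5 or HGC 16, 36 without HGC 12) and 6 to 21 for tRNA between FL and HGC (21 without HGC 12).

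Scaling to the total of the 7 classes moved the median log2 difference of all miRNAs between FL and HGC from 0.09 to 0.36, and between FL and VGC from 0.09 to 0.32.

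The replicate block, which treats same-numbered mice as pairs, called 0 miRNAs between FL and VGC in place of 2 and 0 piRNA features between FL and HGC in place of 18. The numbers do not pair the animals, and of 10 same-numbered FL and HGC libraries 3 had a correlation of deviations above 0.1, and of 9 FL and VGC libraries 5 had one (with a kidney profile 1 of 8 and 3 of 5).

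Directions turned for a few miRNAs between FL and VGC. miR-802-3p was -0.34 over all libraries and 1.93 with DESeq2, 2.19 without the mixed pools, 1.98 with a kidney profile and, within that set, 1.90 with the age term, 2.05 with the plate term, 2.00 with DESeq2, 2.04 with that scaling, 1.93 without the mixed pools and 1.79 without FL 4 and HGC 16. miR-802-5p was -0.31 and became 1.15 with DESeq2 and a kidney profile. miR-133a-3p was 0.38 and became -1.60 with DESeq2, -6.82 without the mixed pools, -6.47 (without FL 3) to 5.06 (without VGC 13) when 1 library was left out, and with a kidney profile -1.99, -1.98 with DESeq2, -2.00 with that scaling and -1.99 without FL 4 and HGC 16. miR-133b-3p was 1.06 and became -1.43, -5.51, -5.17 to 4.67 (the same libraries), -1.74, -1.73, -1.74 and -1.78 in the same order. miR-1a-1-5p was 0.61 and became -5.12 without the mixed pools and -4.85 (without FL 3) to 3.35 (without VGC 13) when 1 library was left out. Between FL and HGC piR-1095 ran from -5.15 (without HGC 4) to 0.16 (without HGC 16). The causes were not tested. For named features, 1594 of 1719 other values kept their direction and side of the threshold or stayed below it, of which 358 changed sign below the threshold, and of 3294 values without 1 library 117 did so.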
